A study of Mus musculus with 11 samples.

Results

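Hspa12b and 9 other genes of blood vessel endothelium (Ramp2, Tie1, Tek, Kdr, Cdh5, Pecam1, Eng, Emcn and Esam) were followed in mouse skin after a single agent, ABBV-075. The 10 genes are 10 of 18194 genes with a probe set of their own and of 13710 genes tested. Hspa12b, Ramp2 and Tie1 were chosen from earlier results of these same arrays, Hspa12b and Tie1 for their difference at 6 h and Ramp2 for its difference at both times, so their values are described without a test. The other 7 were taken as named for blood endothelial identity, also with those results known, and the basis of their choice is not stated. Each gene was read from the probe sets annotated to it alone, which are 12 in all, and the brightest of them stood for the gene.

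The study asked which genes of mouse skin respond to ABBV-075, also known as mivebresib. The compound blocks the bromodomains of the BET proteins, which bind acetylated histones and recruit the transcription machinery. Skin came from 3 groups of mice, 1 mouse and 1 Affymetrix array for each sample. They were 3 mice given vehicle (replicates 1, 3 and 4), 4 mice given 1 mg/kg ABBV-075 and sampled 6 h later (replicates 1, 2, 3 and 5), and 4 mice given the same dose and sampled after 24 h (replicates 1 to 4). The sources used here do not give strain, age, sex, the makeup of the vehicle or the time at which vehicle skin was taken, and no allele or transgene is named for any group. Whole skin holds vessels together with fibroblasts, fat, immune cells, keratinocytes and here skeletal muscle, so a lower level can come from fewer endothelial cells or from less RNA per cell, and these cannot be told apart.

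Blood endothelial cells line the vessels and are recognised by the receptors through which they read growth signals and by the molecules that hold them together. Kdr is the main signalling receptor for VEGF, and Tek, with the related Tie1, receives the angiopoietins that stabilise vessels. Ramp2 pairs with the calcitonin receptor-like receptor to form an adrenomedullin receptor, and Eng is a co-receptor for BMP and TGF-beta ligands. Cdh5, Pecam1 and Esam join neighbouring endothelial cells, Emcn is a surface sialomucin of veins and capillaries, and Hspa12b is an atypical member of the HSP70 chaperone family expressed mainly in endothelium.

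The promoters of the genes are shown first, since they let a reader see how unlike the start regions of these endothelial genes are. Windows of 300 bases (250 before to 50 after the annotated start) were found in RefSeq's table on GRCm38.p6 for 6 of the 10 genes, and for 4 of them the 150 bases just before the gene lie outside its annotated span. These are written 5′ to 3′ along the gene's strand, with the ETS core AGGAAG and the GC box GGGCGG in capitals on either strand (CTTCCT and CCGCCC where they lie on the opposite one).
Hspa12b, chr2:131127262-131127411, plus strand: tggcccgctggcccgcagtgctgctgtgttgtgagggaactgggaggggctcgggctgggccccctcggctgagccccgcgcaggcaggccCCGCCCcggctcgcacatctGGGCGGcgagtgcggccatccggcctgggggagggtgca
Tie1, chr4:118489850-118489999, minus strand: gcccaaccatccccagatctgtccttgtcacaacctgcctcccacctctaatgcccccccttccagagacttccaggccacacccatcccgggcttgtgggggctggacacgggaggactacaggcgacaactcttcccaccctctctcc
Eng, chr2:32646445-32646594, plus strand: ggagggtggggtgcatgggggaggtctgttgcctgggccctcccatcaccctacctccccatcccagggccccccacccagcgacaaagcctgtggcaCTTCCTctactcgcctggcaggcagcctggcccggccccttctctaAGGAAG
Emcn, chr3:137340912-137341061, plus strand: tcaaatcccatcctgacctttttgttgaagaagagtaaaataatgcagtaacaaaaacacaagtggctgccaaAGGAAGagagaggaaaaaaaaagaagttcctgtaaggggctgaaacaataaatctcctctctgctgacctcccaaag
The Hspa12b stretch holds GC boxes on both strands, beginning 59 and 39 bases before the start, and no ETS core, and its full window is 71.3% G and C against a median of 52.7% over 32851 windows. The Emcn window is 41% G and C, and its printed stretch holds an ETS core that begins 77 bases before its end. Eng has ETS cores in both orientations, beginning 52 and 6 bases before the start, and the Tie1 stretch holds neither motif, since its ETS cores lie outside the printed bases. Over the 6 windows, AGGAAG was found in 3 (Tie1, Eng and Emcn) against 35.4% of all windows, and GGGCGG in 2 (Hspa12b and Kdr) against 35.7%. Another 4 motifs were searched on both strands. The GATA site AGATAAG was found in Tek (3.04% of all windows) and CCACACCC in Tie1 (3.56%), while CCGGAAG (8.86%) and TATAAA (13.6%) were found in none. The 6 motifs were picked after the array values had been seen, and a match is a description of letters, not of a bound site.

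Levels are log2(intensity + 16) after quantile normalization. On this scale an intensity of 0 reads 4.00, the 40th percentile of an array is 5.21, and 14.4% of probe sets lie at 4.00 on each array. Before the arrays were aligned their trimmed mean intensity ran from 82.8 to 244, and in the deposited values the median gene lay 0.68 below vehicle at 6 h and 0.62 below at 24 h on the log2 scale. The 5′ to 3′ ratio of the beta-actin control probes, a measure of RNA integrity and labelling, was 0.484 to 0.593 in vehicle, 0.0725 to 0.425 at 6 h and 0.198 to 0.529 at 24 h. For the Gapdh control the ratio was 0.698 to 0.911 in vehicle, 0.104 to 0.711 at 6 h and 0.804 to 1.08 at 24 h. Of the arrays lowest on actin, 6 h replicate 5 was also low on Gapdh (0.104). The 6 h replicate 3 (0.711) and 24 h replicate 2 (0.804) were within the vehicle range on Gapdh. The 24 h replicate 4 stood apart in its tissue makeup, with basal keratinocyte markers at a mean of 12.12 (10.18 to 10.53 in the other 24 h arrays) and fibroblast markers at 9.79 (11.20 to 11.65). All differences below come from 1 limma fit over the 11 arrays, with Benjamini-Hochberg adjustment over 13710 genes and a two-sided threshold of 0.05. Both comparisons with vehicle share its 3 arrays.

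Of the 7 genes taken as named for endothelial identity, all 7 had a mean below vehicle at 6 h, with a median difference of -0.45. Over all genes tested 49.6% lay below, and the median was 0.0037. Since the 7 were also named with results of these arrays known, such counts describe the list and do not test it. At 24 h, 6 of the 7 lay below (52.4% of all genes), with a median of -0.38 against -0.020. None of the 7 passed the threshold at either time, and neither did any other gene (0% of 13710 called at 6 h and 0% at 24 h). At an unadjusted limma p under 0.05 were 1 of the 7 (Pecam1) and 2202 genes in all at 6 h, and 1 of the 7 (Pecam1) and 1046 genes at 24 h. Of all genes, 8.05% at 6 h and 4.47% at 24 h had such a p and lay lower. All these shares are also the background for the lists below. Single arrays moved these medians: with 1 array left out, the 6 h median ran from -0.66 (without vehicle replicate 4) to -0.23 (without vehicle replicate 1), and the 24 h median from -0.54 (without vehicle replicate 4) to -0.20 (without 24 h replicate 4).

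With Hspa12b, Ramp2 and Tie1 included, 10 of 10 lay below vehicle at 6 h and 9 of 10 at 24 h, and the medians were -0.70 and -0.68. Every treated array lay below every vehicle array for 4 of the 10 at 6 h (Hspa12b, Ramp2, Tie1 and Pecam1; background 8.77%) and for 3 at 24 h (Hspa12b, Ramp2 and Tie1; background 6.02%). Those 3 were chosen for such differences, so these counts and medians over the 10 are a description from which nothing is read.

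After group means were removed, vehicle and 24 h arrays of the same replicate number correlated at 0.246, 0.135 and 0.205. Vehicle and 24 h arrays of unlike number ran from -0.35 to 0.21, and the labels do not say what a number shares. Reading the 24 h values within 3 pairs of equal number (replicates 1, 3 and 4) is therefore a description, not an established pairing. Within pairs the 24 h minus vehicle differences were -0.49, -0.28 and -0.61 for Esam and -0.70, -0.32 and -0.69 for Emcn. They were -0.34, -0.11 and -0.59 for Eng and -1.09, -0.71 and -1.84 for Pecam1, so all 4 genes were lower in each pair. Kdr was higher in all 3 pairs, by 0.18, 0.21 and 0.33, and Tek and Cdh5 were lower in 2 of 3. With the replicate number as a block in the limma fit the median of the 7 was -0.46 at 24 h, and none of them was called.

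**Figure D1:**
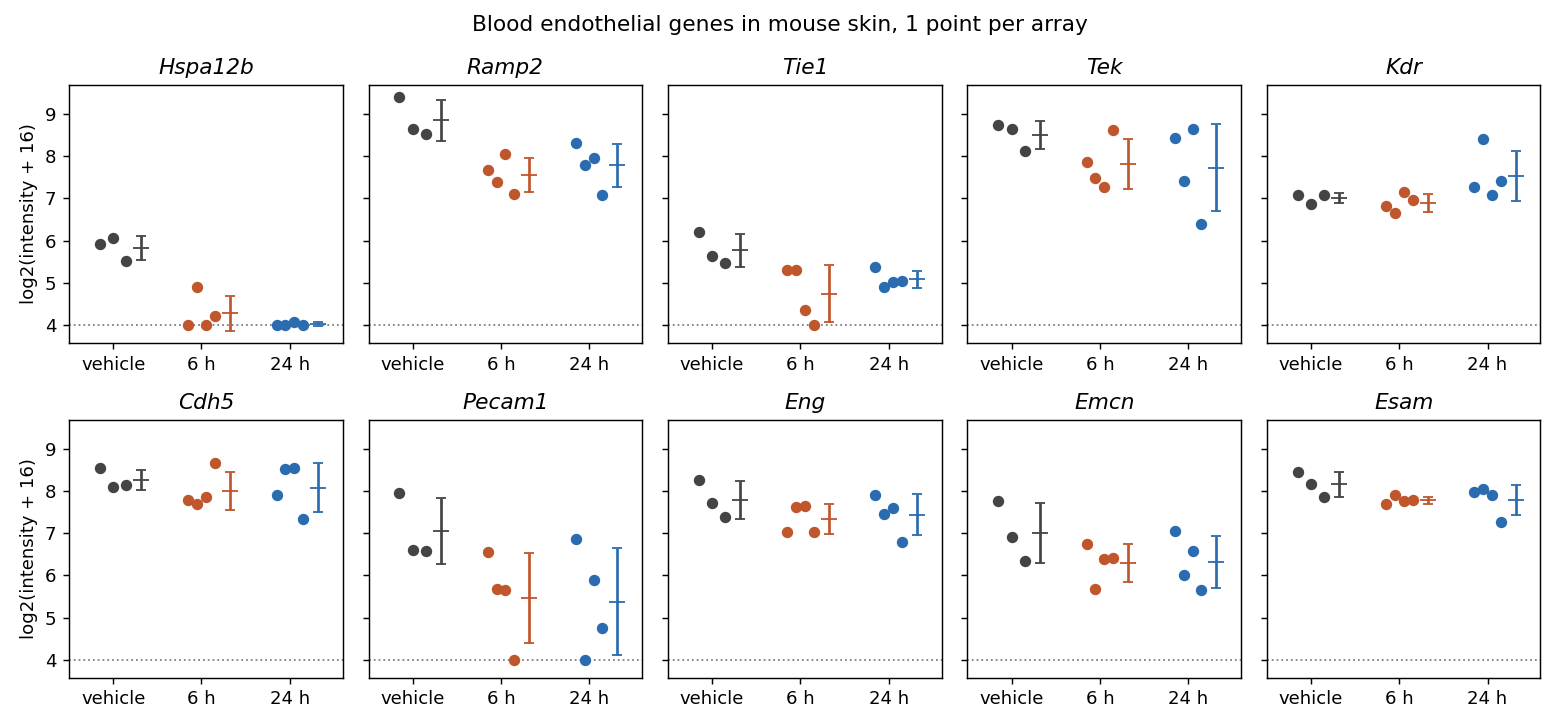
Level of the 10 endothelial genes as log2(intensity + 16) on the y axis, 1 point per array, in vehicle (3 arrays), 6 h (4) and 24 h (4); the bar beside each group is the mean ± SD and the dotted line is the floor of 4.00. Hspa12b leaves the floor in every vehicle array and lies at or near it in nearly every treated one, while Kdr and Cdh5 overlap between groups.

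Hspa12b, the chaperone relative, was read by a single probe set (1460371_at). Its gene lies on chromosome 2 at 131127412 to 131145985 of GRCm38.p6. In vehicle it read 5.91, 6.07 and 5.52, or the 52.9th, 55.5th and 46.1st percentile of its array. At 6 h it read 4.00, 4.89, 4.00 and 4.22, and at 24 h 4.00, 4.00, 4.08 and 4.00. So 3 vehicle arrays of moderate brightness faced 8 treated arrays that were all below the 40th percentile, and 5 of those 8 were at the floor. The difference from vehicle was -1.56 ± 0.23 (SE) at 6 h and -1.81 ± 0.23 at 24 h. Because the treated arrays sit at the floor, the size of this difference follows the constant added before taking logs: with 4 in place of 16 it was -2.77 at 6 h and -3.41 at 24 h, and with 64 it was -0.63 and -0.71. Hspa12b passed the filter on low values through its vehicle arrays alone, so a gene kept this way had to differ.

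Tie1 and Tek are the paired receptors of the angiopoietin pathway, and of them Tie1 is the one that binds no angiopoietin with high affinity itself. Tie1 (1416238_at) read 6.21, 5.62 and 5.47 in vehicle. After treatment it read 5.30, 5.31, 4.37 and 4.00 at 6 h and 5.37, 4.89, 5.02 and 5.04 at 24 h. No treated array reached the lowest vehicle array, but the nearest, at 5.37 in 24 h replicate 1, lay close beneath it. The differences were -1.02 ± 0.33 at 6 h and -0.68 ± 0.33 at 24 h, described only. Tie1 lay below the 40th percentile on 2 of 4 arrays at 6 h and 3 of 4 at 24 h. The size of its differences follows the constant added before taking logs. With a constant of 4 they were -1.72 at 6 h and -0.95 at 24 h, and with 64 they were -0.44 and -0.33. At 6 h the 2 lowest Tie1 values were in replicates 3 and 5, which had the lowest actin ratios of their group (0.284 and 0.0725). Their Gapdh ratios were 0.711 and 0.104. Without the 3 arrays whose actin ratio was under 0.3 the 6 h difference was -0.46. The part of RNA quality in it was not tested further.

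Tek (1418788_at) read 8.74, 8.64 and 8.12 in vehicle. It read 7.85, 7.47, 7.27 and 8.61 at 6 h and 8.44, 7.41, 8.65 and 6.40 at 24 h. Replicate 5 at 6 h and replicates 1 and 3 at 24 h were within the vehicle range, so the groups overlapped at both times. Tek differed from vehicle by -0.70 ± 0.50 (95% interval -1.80 to 0.39) at 6 h, with a limma adjusted p of 0.513, and by -0.78 ± 0.50 (-1.87 to 0.31) at 24 h, adjusted p 0.704. The 24 h value rested largely on replicate 4 and was -0.34 without it.

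Of the other 6 genes of the angiopoietin and Tie pathway, 5 lay below vehicle at 6 h and 4 at 24 h (49.6% and 52.4% of all genes). None passed the threshold or an unadjusted limma p of 0.05 at either time. The agonist ligand Angpt1 differed by -0.76 ± 0.48 at 6 h and 0.14 ± 0.48 at 24 h. The context-dependent ligand Angpt2 differed by -0.27 ± 0.55 and -0.82 ± 0.55. Ptprb, the endothelial phosphatase that dampens Tek signalling, differed by -0.32 ± 0.30 at 6 h and -0.64 ± 0.30 at 24 h, where its 4 arrays lay below all 3 of vehicle. The intervals of all 3 genes included 0 at both times.

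Kdr (1449379_at), the VEGF receptor, was the exception among the 10. It read 7.08, 6.86 and 7.07 in vehicle, 6.82, 6.65, 7.15 and 6.96 at 6 h, and 7.26, 8.41, 7.07 and 7.40 at 24 h. The vehicle and 6 h ranges nearly coincided, and at 24 h the group mean lay above vehicle. The differences were -0.11 ± 0.28 (95% interval -0.73 to 0.52, limma adjusted p 0.880) at 6 h and 0.53 ± 0.28 (-0.088 to 1.15, adjusted p 0.671) at 24 h. Its 24 h value was carried in part by replicate 2, an array with an actin ratio of 0.198 and a Gapdh ratio of 0.804, and was 0.24 without it. In the values as deposited, with no alignment of the arrays, it was -0.086, where the median of all genes was -0.62. The sign of Kdr against 0 at 24 h thus depends on the scaling, while Kdr lay above the median of all genes in both.

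Among 8 tested partners of the VEGF family, 7 lay below vehicle at 6 h and 8 at 24 h (49.6% and 52.4% of all genes). Their medians were -0.36 and -0.52. None was called, and 1 had an unadjusted limma p under 0.05 at each time (2202 and 1046 of all 13710 genes). Vegfa, the main ligand, differed by -0.15 ± 0.29 and -0.55 ± 0.29. Flt1, the high-affinity receptor that also acts as a decoy, differed by -0.22 ± 0.25 at 6 h and -0.68 ± 0.25 at 24 h, where it was the 1 gene with an unadjusted limma p under 0.05 (adjusted p 0.590) and its 4 arrays lay below all of vehicle. The co-receptor Nrp1, which dermal cells other than endothelium also express, differed by -0.54 ± 0.55 and -0.61 ± 0.55. At 24 h the values for Kdr and Flt1, both VEGF receptors, therefore had opposite signs, and the difference between the genes was not tested.

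Ramp2 (1418187_at), the adrenomedullin receptor subunit, read 9.41, 8.63 and 8.52 in vehicle. The treated arrays read 7.68, 7.38, 8.05 and 7.10 at 6 h and 8.30, 7.79, 7.95 and 7.08 at 24 h. All 8 lay below the lowest vehicle array. The difference was -1.30 ± 0.33 at 6 h, or 2.46-fold lower on the scale of intensity + 16, and -1.07 ± 0.33 at 24 h, or 2.10-fold lower. Unlike Hspa12b, Ramp2 was far above the floor on each of the 11 arrays, and its array percentile was 85.3 to 91.7 in vehicle and 69.8 to 83.3 in treated skin. A pair of further probe sets is shared with the neighbouring gene Vps25 and was left out.

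The receptor partner of Ramp2, Calcrl, differed by -0.36 ± 0.44 at 6 h and -0.32 ± 0.44 at 24 h. The ligand Adm differed by -0.14 ± 0.60 and 0.17 ± 0.60, and the alternative subunit Ramp3 by -0.92 ± 0.53 and -0.26 ± 0.53. All 5 tested partners lay below vehicle at 6 h and 3 of 5 at 24 h (49.6% and 52.4% of all genes). None was called, and 1 at 6 h and 0 at 24 h had an unadjusted limma p under 0.05.

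Eng (1417271_a_at), the BMP and TGF-beta co-receptor, read 8.25, 7.71 and 7.37 in vehicle. It read 7.02, 7.61, 7.65 and 7.02 at 6 h and 7.91, 7.45, 7.60 and 6.78 at 24 h. Treated arrays lay on both sides of the lowest vehicle array. The differences were -0.45 ± 0.30 (95% interval -1.12 to 0.21, limma adjusted p 0.482) and -0.34 ± 0.30 (-1.0 to 0.32, adjusted p 0.783). A dimmer probe set of Eng (1432176_a_at) gave -0.34 and -0.46, the same direction. Vehicle replicate 1 was the highest Eng array of all, and without it the differences were -0.22 and -0.10.

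The partners of endoglin were split. At 6 h, 6 of 11 lay below vehicle and 5 above, and at 24 h 5 of 11 lay below (49.6% and 52.4% of all genes). No gene of this list was called at either time. An unadjusted limma p was under 0.05 for 6 at 6 h and 2 at 24 h, against 2202 and 1046 of all 13710 genes. Acvrl1, the endothelial type I receptor that acts with endoglin, differed by -0.95 ± 0.26 at 6 h (95% interval -1.53 to -0.37, limma adjusted p 0.173) and -0.63 ± 0.26 at 24 h (adjusted p 0.629). Its 4 arrays at 6 h lay below all of vehicle.

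The 3 adhesion genes did not share 1 pattern. Cdh5 (1433956_at), the VE-cadherin of adherens junctions, read 8.54, 8.09 and 8.14 in vehicle, 7.79, 7.69, 7.84 and 8.66 at 6 h, and 7.91, 8.53, 8.54 and 7.32 at 24 h. The highest 6 h array, replicate 5, was above every vehicle array while the other 3 were below all of them. Cdh5 differed by -0.26 ± 0.33 (95% interval -0.98 to 0.45, limma adjusted p 0.714) at 6 h and by -0.19 ± 0.33 (-0.90 to 0.53, adjusted p 0.897) at 24 h. Its other probe set (1422047_at) averaged 4.66 to 4.88, below the 40th percentile, and gave 0.18 and -0.038. Leaving out 24 h replicate 4 turned the 24 h value of Cdh5 to 0.065.

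Pecam1 (1421287_a_at), or CD31, an adhesion molecule that platelets and leukocytes also carry, had the widest spread of the 10. It read 7.96, 6.61 and 6.58 in vehicle, 6.54, 5.68, 5.64 and 4.00 at 6 h, and 6.87, 4.00, 5.90 and 4.74 at 24 h. The highest 6 h value, 6.54, was separated from the lowest vehicle value by only the second decimal, and at 24 h replicate 1 lay within the vehicle range. Pecam1 differed by -1.58 ± 0.71 (95% interval -3.14 to -0.027, limma adjusted p 0.303) at 6 h and by -1.67 ± 0.71 (-3.23 to -0.12, adjusted p 0.632) at 24 h. Both floor readings came from the arrays with the lowest actin ratios, 6 h replicate 5 (0.0725) and 24 h replicate 2 (0.198). The Gapdh ratio was low on the former (0.104) but within the vehicle range on the latter (0.804). With the log2 actin ratio as a covariate the differences were -0.39 at 6 h and -1.15 at 24 h. Other members differed on those same arrays: Cdh5 read 8.66 and 8.53 and Kdr 6.96 and 8.41, while Tie1 read 4.00 and 4.89 and Ramp2 7.10 and 7.79. On 6 h replicate 5 both Tie1 and Ramp2 were the lowest of their group. These genes were named after their values had been seen, and the part of RNA quality was not tested further.

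**Figure D2:**
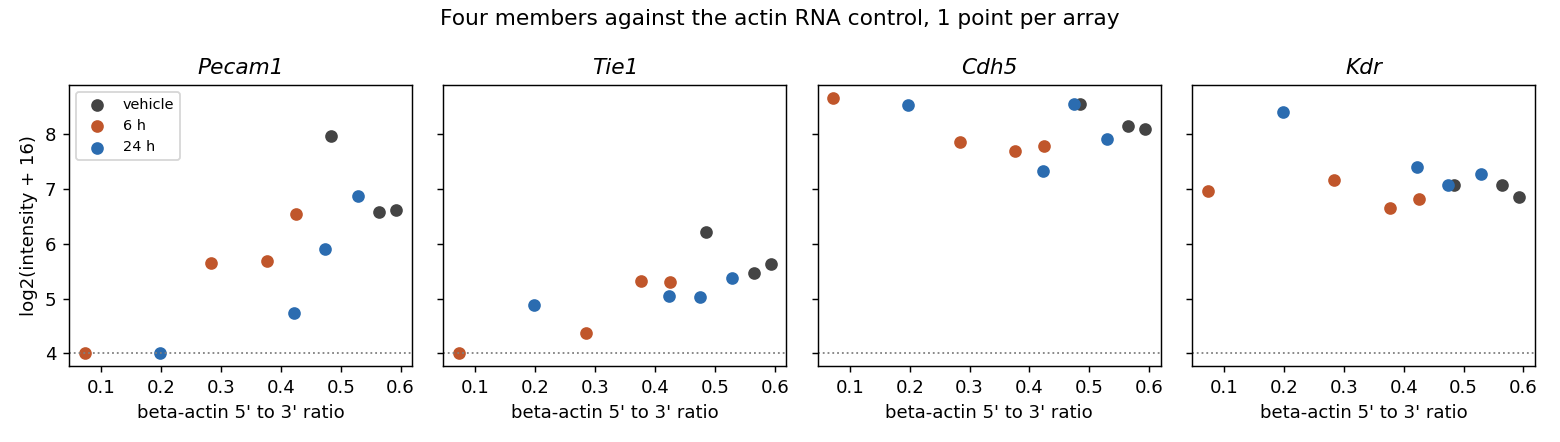
Level of Pecam1, Tie1, Cdh5 and Kdr (y axis, log2(intensity + 16)) against the beta-actin 5′ to 3′ ratio of the array (x axis, no unit), 1 point per array for 11 arrays coloured by group, with the floor of 4.00 dotted. These 4 genes were picked after their values had been seen: Pecam1 is at the floor at ratios of 0.0725 and 0.198 and Tie1 at 0.0725, while Cdh5 reads 8.66 and 8.53 on those 2 arrays. The Gapdh ratios of those 2 arrays were 0.104 and 0.804.

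Esam (1460356_at), an adhesion molecule of endothelial tight junctions, read 8.45, 8.17 and 7.86 in vehicle, 7.69, 7.89, 7.77 and 7.77 at 6 h, and 7.96, 8.03, 7.89 and 7.25 at 24 h. The 6 h arrays were nearly equal to each other (SD 0.084), and at both times the groups overlapped. Its difference was small and alike at both times, -0.38 ± 0.22, with a 95% interval of -0.85 to 0.094 and a limma adjusted p of 0.412 at 6 h, and an interval of -0.85 to 0.098 and an adjusted p of 0.684 at 24 h. It was -0.23 at 6 h without vehicle replicate 1 and -0.20 at 24 h without 24 h replicate 4. Emcn (1425582_a_at), the sialomucin, read 7.75, 6.90 and 6.35 in vehicle, 6.74, 5.67, 6.38 and 6.41 at 6 h, and 7.05, 6.01, 6.58 and 5.66 at 24 h. Vehicle replicate 1 was again the highest of the 11 and the lowest vehicle array lay inside the treated range. Emcn differed by -0.70 ± 0.40 (-1.57 to 0.17, limma adjusted p 0.410) and by -0.68 ± 0.40 (-1.55 to 0.20, adjusted p 0.689). Without vehicle replicate 1 these were -0.33 and -0.30.

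Of 11 junction partners, 3 lay below vehicle at 6 h, with a median of 0.37, and 5 at 24 h, with a median of 0.0059. Over all genes 49.6% and 52.4% lay below. In the values as deposited, without alignment of the arrays, the medians were -0.41 and -0.73, against -0.68 and -0.62 over all genes. The sign of the list's median thus depends on the scaling. Most of these genes are also expressed in epidermis. None was called, and 3 at 6 h (none of them lower) and 0 at 24 h had an unadjusted limma p under 0.05. Cldn5, the claudin of endothelial tight junctions, differed by 0.23 ± 0.35 and -0.12 ± 0.35 (-0.59 and -0.77 as deposited).

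**Figure D3:**
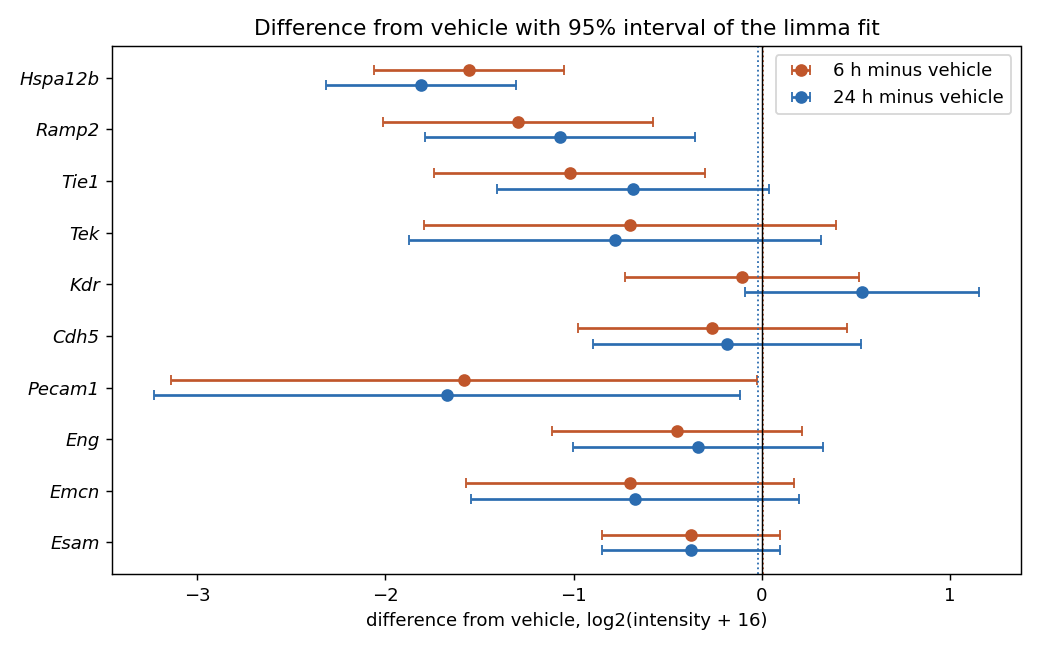
Difference from vehicle in log2(intensity + 16) on the x axis for each of the 10 genes, at 6 h (orange) and 24 h (blue), as the limma estimate with its 95% interval; the solid line is 0 and the dotted lines are the medians of all 13710 genes, 0.0037 and -0.020. All estimates but Kdr at 24 h (0.53) lie below 0, and the intervals of Tek, Kdr, Cdh5, Eng, Emcn and Esam include 0 at both times. Hspa12b, Ramp2 and Tie1 were chosen for such differences, so their intervals show spread only, and their place against 0 is no test.

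Between the treated groups the endothelial genes differed little. The 24 h mean was below the 6 h mean in 3 of the 10 (52.6% of all genes), with a median difference of 0.052 (-0.019 over all genes), and in none did the 24 h arrays all lie below those of 6 h, against a background of 3.54%. No member was called, with 0% of all genes called, 1271 genes at an unadjusted limma p under 0.05 and 1 of the 10 among them. The differences ran from -0.26 ± 0.21 for Hspa12b, whose arrays are at the floor at both times, to 0.64 ± 0.26 for Kdr (95% interval 0.064 to 1.21, limma adjusted p 0.492). Without 24 h replicate 2 the Kdr value was 0.35. The count of members below 0 in this comparison changed between settings, from 1 to 6.

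Endothelial transcription factors of the ETS, SOX, KLF and related families lay below vehicle in 13 of 17 at 6 h and 13 of 17 at 24 h. Over all genes the shares were 49.6% and 52.4%. The list's medians were -0.29 and -0.55. None was called. An unadjusted limma p was under 0.05 for 3 genes at 6 h, all lower, and for 5 at 24 h, of which 4 were lower. Of all 13710 genes, 2202 at 6 h and 1046 at 24 h had such a p, and 8.05% and 4.47% also lay lower. The higher gene at 24 h was Mef2c, named after its value was seen, by 0.66 (limma adjusted p 0.647). As deposited Mef2c differed by -0.052, against a median of -0.62 over all genes. Erg, the ETS factor most restricted to endothelium, had group means of 6.36 (vehicle), 4.98 (6 h) and 4.82 (24 h), differences of -1.38 ± 0.44 (limma adjusted p 0.200) and -1.54 ± 0.44 (adjusted p 0.531). Its treated arrays all lay below vehicle at both times (background 8.77% at 6 h and 6.02% at 24 h). Both treated means of Erg lay below the 40th percentile of 5.21, so the size of its differences follows the constant added before taking logs. Its values with other constants are not given here. Fli1, a related ETS factor also found in blood cells, differed by -0.33 ± 0.64 and -0.55 ± 0.64. Sox18 differed by -1.46 ± 0.47 at 6 h (adjusted p 0.206), where the groups did not overlap, and by -0.64 ± 0.47 at 24 h (adjusted p 0.744), where they did.

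A further list of blood endothelial markers lay below vehicle in 17 of 19 at 6 h and in 19 of 19 at 24 h (49.6% and 52.4% of all genes). Its medians were -0.53 and -0.46. None was called, and 6 and 4 had an unadjusted limma p under 0.05, all of them lower. Of all genes, 8.05% and 4.47% had such a p and lay lower. The list is not separate from those above, since Sox18 is also among the transcription factors and Cldn5 among the junction partners. Whether each of its genes was read mainly from endothelium in this skin was not tested. The mean level of this list per array was 8.06 to 8.60 in vehicle, 7.64 to 7.85 at 6 h and 7.16 to 8.27 at 24 h. For the 10 genes themselves the mean was 7.83, 7.33 and 7.10 in vehicle, 6.74, 6.62, 6.61 and 6.48 at 6 h, and 7.11, 6.65, 6.93 and 6.17 at 24 h. The 6 h arrays thus lay below all of vehicle on both means, and at 24 h replicate 1 exceeded the lowest vehicle array while replicate 4 was the lowest array of the 11.

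Markers of other cell types moved with these means in part, and their share in the endothelial differences was not tested. Fibroblast markers lay below vehicle in 12 of 12 genes at both times, at 11.68 to 11.71 in vehicle, 10.86 to 11.34 at 6 h and 9.79 to 11.65 at 24 h. Macrophage and dendritic cell markers were below in 12 of 12 at both times, at 10.06 to 11.01, 9.10 to 9.82 and 8.08 to 10.19. Adipocyte markers were below in 8 of 8 at both times, at 9.59 to 10.19, 8.45 to 9.42 and 7.43 to 10.08. Over all genes 49.6% lay below vehicle at 6 h and 52.4% at 24 h. None of the genes in these lists was called, and at 6 h and 24 h an unadjusted limma p was under 0.05 in 2 and 2 fibroblast, 3 and 2 macrophage, and 4 and 1 adipocyte genes. All of these were lower, and of all genes 8.05% and 4.47% had such a p and lay lower.

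Of the markers of pericytes and smooth muscle, cells found around vessels, 5 of 11 lay below vehicle at 6 h (49.6% of all genes) and 4 of 11 at 24 h (52.4%). Their medians were 0.0048 and 0.057 (-0.81 and -0.57 as deposited). Single genes ran from -0.87 to 0.45 at 6 h and from -0.95 to 0.48 at 24 h. Array means were 8.47 to 8.68 in vehicle, 8.10 to 8.72 at 6 h and 8.39 to 8.74 at 24 h. Whether these genes were read from vessel walls or from other muscle in the skin was not tested. Lymphatic endothelial markers lay below in 4 and 5 of 7, at 7.11 to 7.49, 6.86 to 7.24 and 6.04 to 7.18. Basal keratinocyte markers lay above vehicle in 8 of 8 at both times, at 9.81 to 10.50, 9.98 to 11.47 and 10.18 to 12.12. The high arrays were 6 h replicates 1 and 2 (11.47 and 11.28) and 24 h replicate 4 (12.12). The other treated arrays read 9.98 to 10.53, close to the vehicle range. Skeletal muscle markers, at 11.91 to 13.36 over the 11 arrays, lay below vehicle in 5 of 8 at 6 h and 1 of 8 at 24 h. The 3 tested platelet markers, whose cells also carry Pecam1, gave array means of 7.67 to 7.93 in vehicle, 6.85 to 8.18 at 6 h and 6.98 to 8.03 at 24 h. No gene of these lists was called either. An unadjusted limma p was under 0.05 in 1 pericyte gene at 6 h, in 1 lymphatic gene at each time and in 0 of the others. The sign of some marker lists depends on the alignment of the arrays. In the values as deposited the keratinocyte medians were -0.14 and -0.12, below 0 but above the medians over all genes (-0.68 and -0.62). A median below 0 as deposited is shared with all genes and shows no stability. Medians of the fibroblast, macrophage, adipocyte and other blood endothelial lists were below 0 after alignment, and below those of all genes as deposited. The lymphatic medians were -0.16 and -0.098 after alignment and -0.53 and -0.70 as deposited. As deposited they lay above the median of all genes at 6 h and below it at 24 h.

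**Figure D4:**
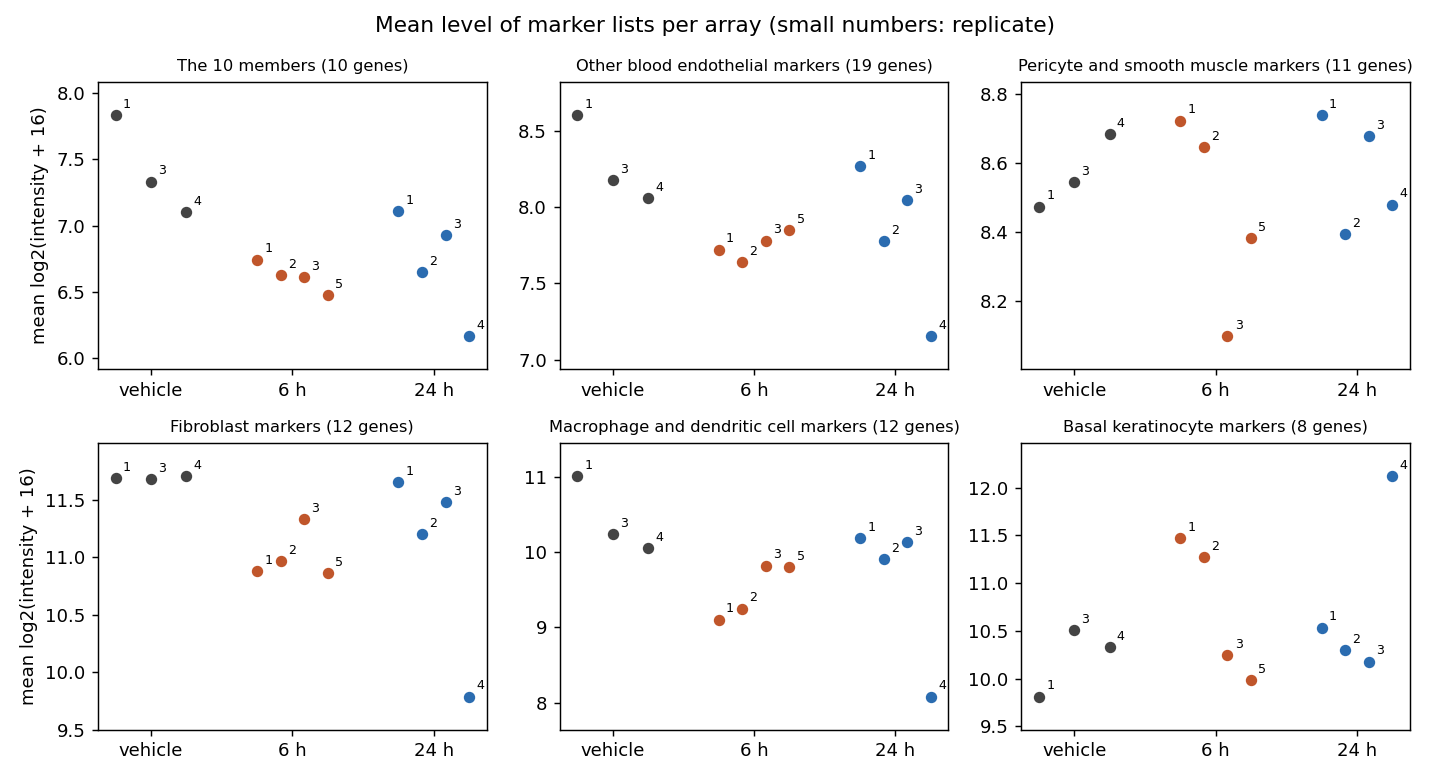
Mean log2(intensity + 16) per array (y axis, its range set separately in each panel) of the 10 endothelial genes and 5 marker lists, by group, with the replicate number beside each point. The 24 h replicate 4 is the lowest array for the endothelial, fibroblast and macrophage lists and the highest for basal keratinocytes, at 12.12, while pericyte and smooth muscle markers stay between 8.10 and 8.74.

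Over the 11 arrays the 10 genes tended to go together, which is a description of arrays that share their group, brightness and tissue makeup. The 45 pairs had a median Pearson correlation of 0.54 (from -0.47 to 0.86), with 35 above 0. After each group's mean was removed the median was 0.31 (from -0.54 to 0.85), with 33 above 0. Kdr stood apart, with a median correlation of -0.17 with the other 9. Hspa12b had 0.49 from its values but 0.010 once group means were removed (5 of its 8 treated arrays are at the floor).

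Outside the 10, the genes with the profile most like Hspa12b over the 11 arrays were Rbbp9 (Pearson r 0.92), Krt20 (0.91), Mtarc1 (0.89), Sh2b2 (0.88) and Tbcel (0.86). Their Spearman correlations were lower, at 0.79, 0.76, 0.54, 0.64 and 0.78. Most treated arrays of Hspa12b are at the floor, so its likeness rests largely on vehicle against treated arrays. Krt20, a keratin of Merkel cells in skin, had group means of 6.25 (vehicle), 4.78 (6 h) and 4.98 (24 h). The mean of the 10 genes was most like Irf4 (0.977), Kank2 (0.974), Cd81 (0.970), Sp100 (0.964) and Plod1 (0.964). Irf4, a transcription factor of immune cells, averaged 7.51, 5.97 and 6.24 in the 3 groups. None of these 10 is on the lists of blood endothelial genes used here.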

How the data were processed

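Skin RNA from 11 mice (200 ng per sample) was labelled with an Affymetrix 3′ IVT kit, per the labels' protocols. The authors deposited 1 linear intensity per probe set (45101 probe sets); their software, background correction and scaling were not given in the sources used here, and 12.9% to 16.6% of each array's intensities are below 0. Probe sets were named from the platform annotation: 34958 carry 1 gene, 932 several and 9211 none. No 2 arrays shared over 3 identical intensities.

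Intensities were quantile-normalized, set to at least 0 and taken as log2(intensity + 16). A gene was its brightest probe set, kept if above the 40th percentile of its array on at least 3 arrays, which kept 13710 genes and all 10 members. limma 3.58.1 in R 4.3.3 fitted 1 mean per group over 11 arrays, and was tested on simulated data. Errors are SE unless called SD, and arrays limit precision by their number.

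The members, lists and alternatives were chosen with earlier results of these data known. All members and 14 fixed partners are named whatever they show. Members that were chosen on a contrast get no p. The like genes are the 5 non-members with the highest Pearson r. Replicate numbers were checked for pairing: after group means were removed, vehicle and 24 h arrays of 1 number correlated at 0.246, 0.135 and 0.205. Those of unlike number ran from -0.35 to 0.21, so the numbers do not establish pairs. The fit printed has no block, and a fit with the replicate number as a block was an alternative. Arrays of 1 number correlated at -0.12 and -0.074 between vehicle and 6 h, and at -0.064, -0.345 and 0.169 between 6 h and 24 h. The labels do not say what a number shares. Promoters come from RefSeq.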

Additional observations from a re-analysis of the deposited data

Results flagged for a closer look

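In 20 groups of 4 arrays (10 genes at 6 h and 24 h), 2 values lay far from the rest of their group, where chance gives about 1 in 20. Cdh5 at 6 h read 8.66 in replicate 5 against 7.84 in the next array, a gap of 0.844 of the group's range. That array also had the lowest actin ratio, 0.0725. Hspa12b at 24 h read 4.08 in replicate 3 against 4.00, the floor, in the other 3, a gap of 1 of a range that is itself within the floor's neighbourhood.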

How the results depend on the processing

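Over 25 alternative settings, the 7 members given a test kept their direction in 175 of 175 values at 6 h and 172 of 175 at 24 h. The 3 that turned were Kdr at 24 h as deposited (-0.086), Eng at 24 h with array weights (0.0038) and Cdh5 at 24 h without 24 h replicate 4 (range over the arrays left out -0.34 to 0.065). As deposited the median of all genes at 24 h was -0.62, so Kdr turned against 0 but not against that median. Of the 175 values, 1 was called at 6 h (Tek with array weights, adjusted p 0.042, range over its alternatives 0.042 to 0.773) and 0 at 24 h. The direction of Hspa12b, Ramp2 and Tie1 follows from how they were chosen and is no sign of stability.

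Over all 10 members the calls at 6 h were 3 with array weights (Hspa12b, Ramp2 and Tek), 2 as deposited (Hspa12b and Ramp2), 1 with the mean of probe sets, 1 with no filter and 0 to 1 with an array left out, each of these last being Hspa12b. At 24 h they were 1 with array weights, 1 as deposited and 0 to 1 with an array left out, again Hspa12b. These calls of Hspa12b and Ramp2, genes chosen for their differences, support nothing. All genes called at 6 h were 2498 with array weights, 859 as deposited, 18 with no filter, 7 with the mean of probe sets, 1 with the replicate block and 0 to 23 with an array left out. At 24 h they were 59, 6 and 1 with array weights, as deposited and with no filter, and 0 to 1 with an array left out. Between 24 h and 6 h they were 423 with array weights, 3 with the actin covariate, 2 with the mean of probe sets, 1 when x_at and s_at sets were left out, and 0 to 7 with an array left out. The causes were not tested.

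The median difference of the 10 members was -1.34 at 6 h and -1.15 at 24 h as deposited, where all genes also lay lower, and -0.26 at 24 h with array weights. Over the arrays left out it ran from -0.96 to -0.45 at 6 h and from -0.90 to -0.38 at 24 h, with vehicle replicate 4 left out at the low ends and vehicle replicate 1 at the high ends. With the replicate block it was -0.84 at 6 h and -0.64 at 24 h, no member was called. Members with a lower mean at 24 h than at 6 h were 3, but 1 with array weights, 5 with the mean of probe sets, 6 with median scaling and 1 to 6 with an array left out. Single members' 24 h minus 6 h values were followed through the settings for Hspa12b and Kdr only. That limit was set after signs among the other 8 had been seen to change. In the main fit those 8 ran from -0.090 (Pecam1) to 0.34 (Tie1). A filter at the 60th percentile removed Hspa12b and Tie1, and left 8 of 8 members below vehicle at 6 h and 7 of 8 at 24 h.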
